A study of Mus musculus with 108 samples.

Results

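The 9 genes described here were the interferon-induced transmembrane genes Ifitm1, Ifitm2 and Ifitm3 and 6 genes that mark or specify primordial germ cells, the embryonic founders of the germline: Prdm1, Prdm14, Tfap2c, Dppa3, Nanos3 and Alpl. They were taken by symbol from a table of 26218 genes, and all 9 symbols were present. The table held single-cell profiles of cultured mouse cells made with SC3-seq, which sequences the 3′ ends of polyadenylated RNA. Germline stem cells (GSC) are spermatogonial stem cells from testes that are kept in culture, and germline stem cell-like cells (GSCLC) are their counterparts derived from pluripotent stem cells. GSC1 held 30 cells and GSC2 held 24 cells, and GSC2 came from other testes of postnatal day 7. GSCLC1 held 30 cells, and GSCLC4, with 24 cells, was grown from testes that had been reconstituted and cultured for 3 weeks at 34 °C. Every cell carried the AcrAct_EGFP reporter in the 129/SvJcl x C57BL/6 background. All were grown in StemPro-34 medium with GDNF, bFGF, LIF and EGF and dissociated with trypsin. Each line is a single culture, so lines and not cells were compared, 2 against 2, and a p-value measures only the spread between these cultures.

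In the embryo, BMP signals induce Prdm1 and Prdm14 in a few epiblast cells, and together with Tfap2c these transcription factors repress the somatic program and start germ cell development. Ifitm3 and Dppa3 are classic markers of the founding population, Nanos3 encodes an RNA-binding protein that keeps migrating germ cells alive, and Alpl encodes the tissue-nonspecific alkaline phosphatase by which primordial germ cells have long been stained. Most of this program is shut down before birth, whereas spermatogonia retain part of it. Ifitm proteins sit in cell membranes and block the entry of enveloped viruses, and interferon induces them in many somatic cells.

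The 3 Ifitm genes lie in 1 cluster on chromosome 7 of mm10 (GRCm38.p6 positions of RefSeq): Ifitm2 from 140954837 to 140959686, Ifitm1 from 140967429 to 140969827 and Ifitm3 from 141009590 to 141010744. Interferon acts through the ISRE, here searched by its core GAAANNGAA on both strands, and the sequences before the 3 starts are shown because the genes share a cluster and are named for this response. Each is the 120 bases just before the most upstream GENCODE vM21 start in the RefSeq promoter window, 5′ to 3′ on the gene's strand, with matches to the core in capitals. They are chr7:140967908-140968027 (plus strand, inside the first intron of a longer Ifitm1 transcript), chr7:140955988-140956107 (minus strand, also inside the Ifitm2 bounds given above) and chr7:141010771-141010890 (minus strand). The sequences at the upstream bounds of Ifitm1 and Ifitm2 were not searched.
Ifitm1: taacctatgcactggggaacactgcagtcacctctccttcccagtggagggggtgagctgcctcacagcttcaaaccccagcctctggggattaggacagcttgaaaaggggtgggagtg
Ifitm2: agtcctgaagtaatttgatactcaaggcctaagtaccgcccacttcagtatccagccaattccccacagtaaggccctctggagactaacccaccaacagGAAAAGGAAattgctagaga
Ifitm3: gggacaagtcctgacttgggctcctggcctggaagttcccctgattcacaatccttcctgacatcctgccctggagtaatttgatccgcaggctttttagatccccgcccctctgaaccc
The Ifitm2 stretch held 1 match and the others none. Ifitm3 had its 2 matches just after the start, within the 26 bases at chr7:141010717-141010742, on the minus strand.
Ifitm3 site: GAAAAGGAAacttctgaGAAACCGAA
In RefSeq windows of 300 bases around the start, the core was found in 8.56% of 32851 windows, among them those of Ifitm2 and Ifitm3 and not that of Ifitm1. The GAS core TTCNNNGAA, which reads the same on both strands, was found in 8.30% of windows, among them that of Ifitm3, where it shares bases with an ISRE match. The AP-2 core GCCNNNGGC, likewise palindromic, was found in 16.6% of windows, among them those of Nanos3 and Alpl. Windows were matched for 6 of the 9 genes, which leaves out Prdm14, Tfap2c and Dppa3.

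Levels are in RPM, reads scaled to a fixed total per cell, and a gene was counted as present in a cell at 5 RPM or more, which was 9.99 to 30.2 estimated reads depending on the cell's depth. Cells had an estimated 2.00 to 6.04 M reads and 5748 to 10959 detected genes. Summed RPM of 13 undifferentiated germ cell markers ranged from 3254 to 10306 in all cells but 1. That cell, in GSC1, had the fewest genes and 1275 RPM of germ cell markers. Its 20 fibroblast and feeder cell markers summed to 70534 RPM, against at most 4738 RPM in any other cell, and 17 of the 20 were at 5 RPM or more. Results that rest on it are given with and without it. The serial numbers in the titles place 13 GSC1 cells below 129 and 17 from 129 on, and these runs are also given apart. The labels do not say whether the runs are separate cultures. Line means are given in the order GSC1, GSC2, GSCLC1, GSCLC4 where 4 values follow a gene.

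Only Nanos3 and Ifitm1 were common. Nanos3 was present in 55 cells (50.9%), Ifitm1 in 47, Alpl in 23, Ifitm2 in 20, Ifitm3 in 15, Dppa3 in 9, and Prdm1 and Tfap2c in 2 each. Prdm14 was present in none. Apart from Nanos3, the genes were below 5 RPM in most cells and high in some. In the cells that had each, the median level was 59.1 RPM for Ifitm1, 61.7 for Ifitm3 and 36.4 for Nanos3. For Ifitm2, Alpl and Dppa3 it was 27.4, 22.97 and 38.0 RPM. Genes averaging 20 to 40 RPM over all cells were present in a median of 52.8% of cells (5th to 95th percentile 34.3% to 77.8%). Those averaging 1 to 10 RPM were present in 10.2% (1.85% to 29.6%). The line means of Nanos3 and Alpl lay inside these levels, and their shares, 50.9% and 21.3%, inside the matching percentiles. The SD over cells was larger than the mean for each gene in each line where it was above 0 (lowest ratio 1.20, Nanos3 in GSCLC4). This SD describes the spread of cells and is not the error of a line mean, so it does not decide the order of the lines.

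**Figure D1:**
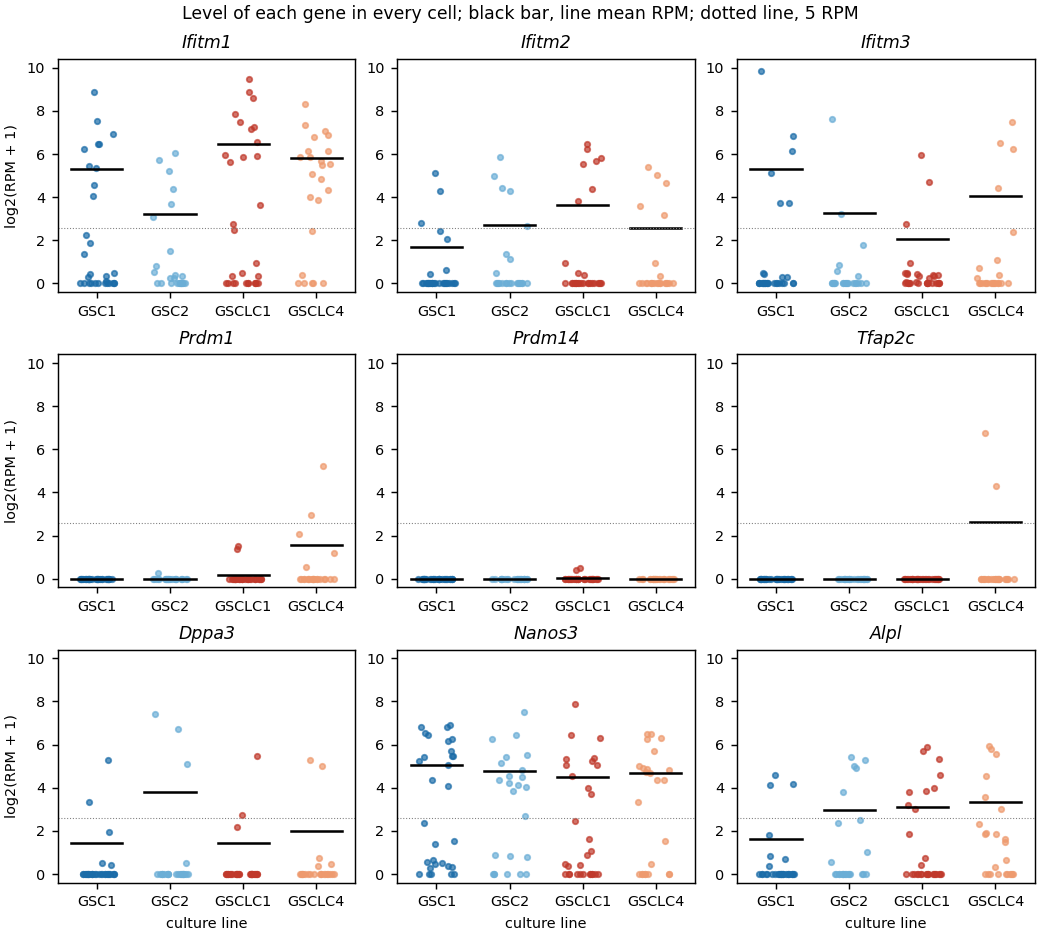
Level of each of the 9 genes in every cell as log2(RPM + 1) (vertical axis) by culture line (horizontal axis), with 30, 24, 30 and 24 cells. Points are cells, black bars line mean RPM and the dotted line 5 RPM; Nanos3 and Ifitm1 have many cells above the dotted line in every line, and Prdm1 and Tfap2c have cells above it in GSCLC4 alone.

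Of the specification factors, Prdm1 (chromosome 10, 44437174 to 44528558), a transcriptional repressor that starts the germ cell program, had line means of 0, 0.0084, 0.12 and 2.00 RPM. It was above 0 in 8 cells, of which 5 belonged to GSCLC4, and the 2 cells at 5 RPM or more were both of that line, with 36.3 and 6.87 RPM. Tfap2c (chromosome 2, 172545678 to 172558622), an AP-2 transcription factor downstream of Prdm1, was listed at 0 in every cell of the other 3 lines. In GSCLC4 it had 107.3 RPM in 1 cell and 18.8 RPM in another, and 0 in the remaining 22. Prdm14 (chromosome 1, 13113428 to 13127163), which supports the return of pluripotency genes in germ cell precursors, had at most 0.41 RPM, in GSCLC1. For each of these genes, 0 of 30 cells allows a share of up to 10% and 0 of 24 cells up to 12.5%. The present cells were 8.33% of GSCLC4 for Prdm1 and for Tfap2c, with the same 95% interval of 1.03% to 27% (exact Clopper-Pearson), which overlaps the range allowed in the other lines.

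Relatives of these factors were measured from lists of each family. Of 13 other Prdm genes in the table, 4 had at least 5 RPM in every line. Prdm4 had 101.6 to 114.7 RPM, Prdm2 had 57.0 to 104.6, and Prdm15 and Prdm16 lay between 13.0 and 28.8 RPM. None of the 5 tested relatives passed the threshold. Of the other AP-2 genes, Tfap2a reached 4.93 RPM in GSC1 and was below 1 RPM elsewhere, and Tfap2b, Tfap2d and Tfap2e were listed at 0 in all lines. Of 29 partners and inputs of specification, such as the BMP receptors and SMADs, 20 had at least 5 RPM in every line. Bmpr1a, a BMP receptor, had 88.5 to 176.1 RPM and Smad4, the shared signal transducer, 107.9 to 174.1 RPM. Prmt5, the arginine methyltransferase that partners Prdm1 in germ cells, had 49.9 to 65.8 RPM. The 21 tested genes were divided into 11 higher and 10 lower in GSCLC, 0 called, with 2 at an unadjusted p under 0.05 and a median log2 difference of 0.03 against 0.04 over all tested genes. The 4 with the largest differences all had negative values: T, the mesoderm factor brachyury (log2 difference -1.71), the signal Wnt3 (-1.18), Tcl1 (-0.87) and the LIF receptor gene Lifr (-0.68), with limma adjusted p from 0.520 to 0.647.

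Dppa3 (chromosome 6, 122626424 to 122630271), also called Stella, protects methylation in the early embryo and marks founding germ cells. Its line means were 1.70, 12.9, 1.74 and 2.94 RPM, with a median of 0 in each. It was present in 2, 3, 2 and 2 cells, which are 6.67%, 12.5%, 6.67% and 8.33%. The higher GSC2 mean rested on few cells: its 2 highest, with 169.2 and 106.04 RPM, held 89.0% of the line's sum. The highest cells of the other lines had 38.4 RPM in GSC1, 42.98 in GSCLC1 and 38.0 in GSCLC4.

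Nanos3 (chromosome 8, 84173733 to 84176552) was present in the most cells over all lines together and was the most even between lines. In both GSCLC lines Ifitm1 was present in more cells than Nanos3. GSC1 had a mean of 32.2 RPM (SD over cells 40.2, median 10.2, highest 121.1), GSC2 26.0 RPM (SD 40.2, median 16.0, highest 179), GSCLC1 21.4 RPM (SD 46.7, median 0.60, highest 236) and GSCLC4 24.9 RPM (SD 29.9, median 19.4, highest 88.8). It was present in 50% of GSC1 cells (95% interval 31.3% to 68.7%), 62.5% of GSC2 (40.6% to 81.2%), 36.7% of GSCLC1 (19.9% to 56.1%) and 58.3% of GSCLC4 (36.6% to 77.9%). All 4 intervals overlap. The GSC1 cell with the fewest genes had 91.7 RPM of Nanos3. Without it the GSC1 mean was 30.2 RPM, the median 4.17 RPM and the share 48.3%. With each cell thinned to 1998272 reads and a cell counted from 1 read, the shares were 70%, 70.8%, 60% and 66.7%. Among its 77 nonzero values, 15 (19.5%) deviated from a whole number of reads by over 0.05 reads. Over all genes, whole reads made up 85.7% to 92.4% of the values of a cell. Whether reads of Nanos3 were divided with another gene was not tested.

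The relatives and partners of Nanos3 were also present. Nanos1, another member of the family, had 44.1, 42.4, 27.2 and 20.9 RPM (log2 difference -0.83 ± 0.37, limma adjusted p = 0.558). Nanos2, which keeps spermatogonial stem cells undifferentiated, had 1.93, 16.7, 5.51 and 3.37 RPM (log2 difference -0.43, adjusted p = 0.939). Dnd1, an RNA-binding partner of NANOS proteins, had 94.1 to 122.5 RPM, and Pum2, another partner, 119.2 to 151.1 RPM. Of the 7 genes of this list, all of them tested, 2 were higher and 5 lower in GSCLC and 0 passed, with a median of -0.27 against 0.04 over all tested genes. Ranked by the mean of the within-line Spearman correlations over 4 lines, the genes most like Nanos3 across cells were Ccnd2 (mean rho 0.35), Gm8841 (0.34) and Vav2 (0.33). These are the top of 6302 genes compared, whose mean rho had a 99th percentile of 0.24. In GSCLC1 the rho of the same 3 genes was 0.14, 0.22 and 0.08.

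Alpl (chromosome 4, 137741731 to 137796384) was low and scattered, with line means of 2.05, 6.79, 7.75 and 9.16 RPM. The medians were 0 in the first 3 lines and 1.16 RPM in GSCLC4, and the highest cells had 23.5, 41.5, 58.9 and 61.1 RPM. It was present in 3 of 30, 5 of 24, 9 of 30 and 6 of 24 cells. These are 10% (95% interval 2.11% to 26.5%), 20.8% (7.13% to 42.2%), 30% (14.7% to 49.4%) and 25% (9.77% to 46.7%), again with intervals that overlap. At 1 read or more in thinned cells the shares were 20%, 33.3%, 36.7% and 58.3%. The intestinal and germ cell alkaline phosphatases Akp3, Alpi and Alppl2 had at most 0.015 RPM in any line.

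By line mean, Ifitm1 was the most abundant Ifitm gene in both GSCLC lines. In GSC1 it was level with Ifitm3 (38.4 and 38.3 RPM), or 39.7 against 8.30 RPM without the cell with the fewest genes. In GSC2 Ifitm1 had 8.19 RPM and Ifitm3 8.71 RPM, or 0.53 RPM for Ifitm3 without its highest cell. GSCLC1 had a mean of 87.0 RPM (SD over cells 165.6, median 2.73, highest 709) and GSCLC4 56.2 RPM (SD 72.9, median 38.5, highest 321). GSC1 had 38.4 RPM (SD 92.9, median 0.31, highest 471) and GSC2 8.19 RPM (SD 17.7, median 0.19, highest 65.3). The highest GSC1 cell held 40.9% of that line's sum, and the mean of the others was 23.5 RPM. Both GSCLC means were above both GSC means, but the cells overlapped: the highest GSC1 cell was above all GSCLC cells but 1. Ifitm1 was present in 10 of 30 GSC1 cells (33.3%, 95% interval 17.3% to 52.8%) and 6 of 24 GSC2 cells (25%, 9.77% to 46.7%). It was present in 14 of 30 GSCLC1 cells (46.7%, 28.3% to 65.7%) and 17 of 24 GSCLC4 cells (70.8%, 48.9% to 87.4%). The GSCLC4 and GSC2 intervals do not overlap; these intervals cover counting error over cells and not the difference between cultures. In thinned cells the shares were 56.7%, 41.7%, 60% and 79.2%.

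The GSC1 runs differed in their Ifitm1, which was not tested. The 13 cells with serial numbers under 129 had a mean of 80.3 RPM with 7 cells present, and the 17 others 6.32 RPM with 3 cells present. The former mean lay between those of the GSCLC lines, and the latter was below that of GSC2. Ifitm2 was present in 3 of the 13 cells and in 0 of the 17, which allows up to 17.6%. Nanos3 was present in 6 of 13 and 9 of 17 (8 of 16 without the cell with the fewest genes). Ifitm3 was present in 1 of 13 cells (mean 8.81 RPM) and in 5 of 17 (60.9 RPM, or 7.88 RPM with 4 of 16 cells without the cell with the fewest genes). Other lists moved with the runs. Fibroblast and feeder markers summed to a mean of 312 RPM in the run under 129 and 5035 RPM in the other (941 RPM without that cell), and germ cell markers to 7161 and 5252 RPM (5501 RPM without it). Their part in the Ifitm1 difference was not tested.

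**Figure D2:**
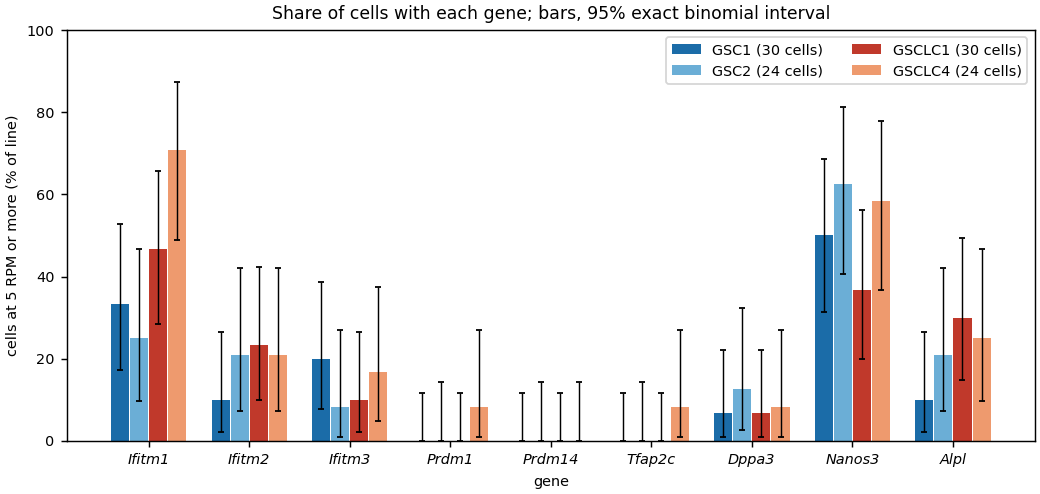
Share of cells at 5 RPM or more in percent of each line (vertical axis) for the 9 genes (horizontal axis), with 95% exact binomial intervals. Ifitm1 runs from 25% in GSC2 to 70.8% in GSCLC4, and the intervals of the 4 lines overlap for the 8 other genes.

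Ifitm2 was present in a smaller share of cells than Ifitm1 in every line. Line means were 2.23, 5.61, 11.5 and 4.93 RPM, with a median of 0 in each and highest cells of 33.9, 56.5, 86.5 and 41.5 RPM. The cells with it numbered 3 of 30, 5 of 24, 7 of 30 and 5 of 24. GSCLC4 and GSC2 had the same share, 20.8%, and means that differed by less than 1 RPM.

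Ifitm3 rested on few cells in every line. In GSC1 it was present in 6 of 30 cells, and the cell with the fewest genes, described above for its fibroblast markers, had 909 RPM, or 79.1% of the line's sum. The line mean was 38.3 RPM with that cell and 8.30 RPM without it. The next GSC1 cells had 113.6, 68.4 and 33.3 RPM. In GSC2, 1 cell with 197 RPM held 94.1% of the sum behind the mean of 8.71 RPM, and the other cell with Ifitm3 had 8.23 RPM. GSCLC1 had 3 cells, with 61.7, 25.4 and 5.70 RPM and a line mean of 3.22 RPM. GSCLC4 had 4 cells, with 179, 90.8, 74.8 and 20.5 RPM and a line mean of 15.5 RPM. The highest cell held 63.8% of the sum in GSCLC1 and 48.2% in GSCLC4.

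Fibroblast and feeder markers were compared with Ifitm3 across the cells of each line. The GSC2 cell with the most Ifitm3 also had the highest marker sum of its line, 959 RPM. The Spearman correlation of Ifitm3 with the sum of the 20 markers was 0.42 over 30 GSC1 cells (0.35 without the cell with the fewest genes), 0.51 over 24 GSC2 cells, -0.01 over 30 GSCLC1 cells and 0.10 over 24 GSCLC4 cells. The GSC1 value differed between the runs: it was -0.09 over the 13 cells under 129 and 0.72 over the 17 others (0.65 without the cell with the fewest genes). The cells of a line are not replicates of it, and many values of Ifitm3 are tied at 0. The marker sum ranged from 34.8 to 70534 RPM in GSC1, 66.2 to 959 in GSC2, 24.7 to 848 in GSCLC1 and 131.1 to 1057 in GSCLC4. Lum, a fibroblast proteoglycan, was at 0 in every line, while Fn1, S100a6 and Vim, which other cells also express, were its 3 most abundant genes in each line. The 10 tested markers had negative log2 differences (GSCLC minus GSC), 0 called, with a median of -1.35. Without the GSC1 cell with the fewest genes, which took the mean marker sum of GSC1 from 2988 to 659 RPM, 9 were tested, of which 7 had negative and 2 positive differences, with a median of -0.69. Of these, S100a6 alone was called then (log2 difference -1.79, limma adjusted p = 0.0386), against -2.51 and an adjusted p of 0.0669 with the cell. The part of fibroblast RNA in the Ifitm3 levels was not tested.

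The Ifitm transcripts share identical runs in their 3′ ends, which SC3-seq reads. Over the last 500 bases of their GENCODE vM21 transcripts, the longest identical run was 69 bases between Ifitm2 and Ifitm3, 64 between Ifitm1 and Ifitm3 and 40 between Ifitm1 and Ifitm2. Values above 0 that were not whole reads numbered 2 of 69 for Ifitm1, 6 of 32 for Ifitm2 and 3 of 40 for Ifitm3. Low values of 1 gene in cells high in another are therefore read with caution, and the assignment of reads between these genes was not tested.

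The other Ifitm genes and the neighbours of the cluster were mostly near 0. Ifitm6 and Ifitm7 were listed at 0, and Ifitm5, a bone-specific member, had 0.084 RPM in GSC2 and 0 elsewhere. Among neighbours, Nlrp6 was listed at 0, Sigirr had at most 0.46 RPM and Pkp3, which encodes a desmosome protein, 3.01 RPM in GSC1 and at most 0.019 RPM elsewhere. Athl1 had 5.04 RPM in GSC1 and under 1 RPM elsewhere. B4galnt4, a glycosyltransferase gene and the only tested gene of this list, had 9.54, 3.27, 11.5 and 2.34 RPM (log2 difference -0.05, limma adjusted p = 0.995).

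Genes that interferon induces in other cells ran from 0 to high levels here. Of 43 in the table, 10 stayed under 1 RPM in every line, among them the ubiquitin-like modifier Isg15, the antiviral effectors Ifit1, Ifit3, Oas2 and Mx1 and the regulator Irf7. Another 14 had at least 5 RPM in every line: Irf1 had 118.7 to 168.1 RPM and B2m, the light chain of MHC class I, 135.8 to 243 RPM. The receptor chains Ifnar1 (25.2 to 52.1 RPM) and Ifngr1 (11.4 to 34.1 RPM) were present. Of 23 tested, 11 were higher and 12 lower in GSCLC and 0 passed, with 2 at an unadjusted p under 0.05 and a median log2 difference of -0.11 against 0.04 over all tested genes. Dhx58, a cytoplasmic RNA sensor, had the largest difference, with 23.8, 9.41, 4.63 and 0.76 RPM (log2 difference -2.35 ± 0.81, adjusted p = 0.463). The next were Stat2 (1.34), Irf9 (1.11) and Ifi35 (-1.06), with adjusted p from 0.660 to 0.727.

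Between the types of line, none of the 9 genes passed. Genes were tested with limma on log2(line mean RPM + 1) where at least 2 lines reached 5 RPM, and 5 of the 9 were: Ifitm1, Ifitm2, Ifitm3, Nanos3 and Alpl. Of all 10526 genes tested, 8 passed an adjusted p of 0.05 (0.0760%), and 929 had an unadjusted p under 0.05 (8.83%). Of the 5, Ifitm1 alone had an unadjusted p under 0.05. Over 2 lines each, its mean ± SD was 71.6 ± 21.8 RPM in GSCLC and 23.3 ± 21.4 RPM in GSC. The log2 difference was 1.90 ± 0.57 (SE, limma adjusted p = 0.395). Leaving out GSC1 gave 2.95 (adjusted p = 0.0798) and leaving out GSC2 gave 0.85 (adjusted p = 0.652), where the lone GSC line is assumed to vary like the GSCLC lines. The adjusted p ranged from 0.0692 to 0.787 over 15 alternatives. With the GSC1 run under 129 alone the difference was 1.38, and with the run from 129 on alone 3.11. The difference stayed positive in each. With a line left out this sign was fixed, since both GSCLC means lay above both GSC means. The size of the difference depended on which GSC cells were used.

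The other differences were smaller relative to their standard errors. Ifitm2 had a log2 difference of 0.90 ± 0.78 (adjusted p = 0.801), and its line means overlapped between types. For Ifitm3 it was -1.23 ± 0.79 (adjusted p = 0.697), which became -0.19 without the GSC1 cell with the fewest genes and -0.24 without GSCLC1. Alpl had 4.42 ± 3.35 RPM in GSC and 8.46 ± 1.00 RPM in GSCLC lines, with a log2 difference of 0.95 ± 0.75 (adjusted p = 0.770), and 0.28 without GSC1. Nanos3 had 29.1 ± 4.38 and 23.1 ± 2.51 RPM, with a log2 difference of -0.32 ± 0.41 (adjusted p = 0.889). Both GSCLC means lay above both GSC means for Ifitm1 and Alpl and below both for Nanos3, 3 of the 5, while 39.3% of all tested genes were separated in 1 direction or the other.

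**Figure D3:**
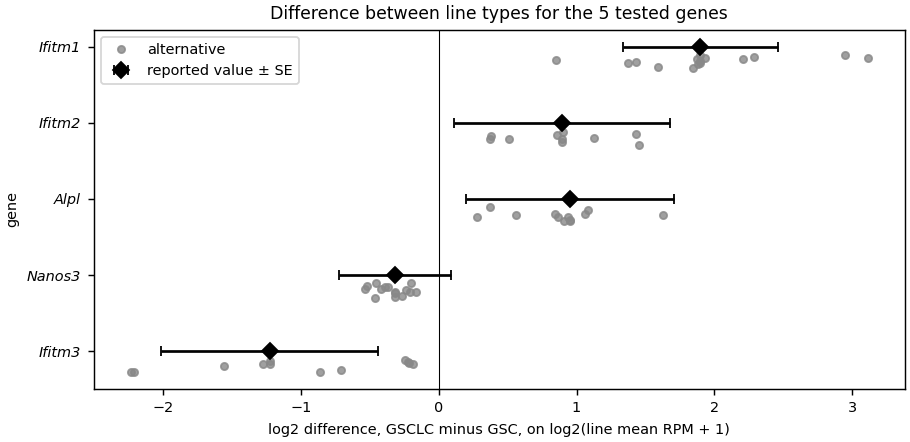
Log2 difference between GSCLC and GSC lines (horizontal axis) for the 5 tested genes (vertical axis); black diamonds are the reported values with standard errors and grey points the alternatives. Ifitm1 lies at 1.90 with alternatives from 0.85 to 3.11, and no point of any gene crosses 0. Ifitm2, Ifitm3 and Alpl have fewer points because some alternatives filtered them out.

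Other genes expressed in primordial germ cells, listed apart from the 9, were not called either. Of 24 tested, 13 were higher and 11 lower in GSCLC, with 0 called, 5 at an unadjusted p under 0.05 and a median log2 difference of 0.05. Dazl and Ddx4, the RNA-binding proteins of later germ cells, had 3193 to 3521 and 765 to 986 RPM, far above any of the 9 genes. The pluripotency factor Nanog had at most 0.11 RPM. Rhox6, an X-linked homeobox gene, had 0.57, 0.010, 11.3 and 7.67 RPM (log2 difference 3.04 ± 0.91, adjusted p = 0.395). The differences of Utf1, Sox2 and Fbxo15 were 1.98, 1.85 and 1.55, with adjusted p from 0.262 to 0.688.

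Within cells, few of the 9 genes were present together. There were 14 cells that had none of them, 42 had 1, 30 had 2, 17 had 3 and 5 had 4. The median cell had 1 in GSC1, GSC2 and GSCLC1 and 2 in GSCLC4. GSCLC4 also had the highest median of detected genes, 9866, and the part of this in the counts per cell was not tested. At least 1 Ifitm gene was present in 15 of 30 GSC1 cells (50%), 11 of 24 GSC2 cells (45.8%), 20 of 30 GSCLC1 cells (66.7%) and 19 of 24 GSCLC4 cells (79.2%).

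**Figure D4:**
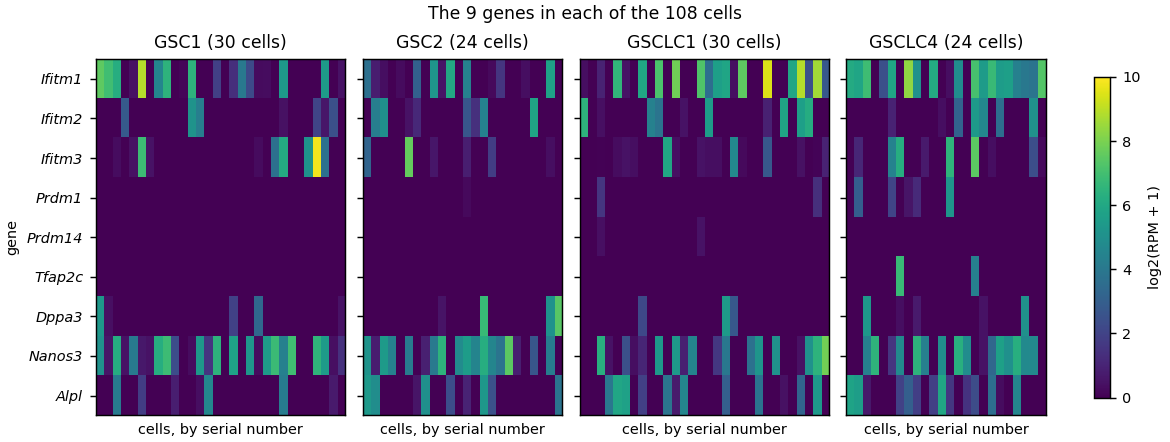
Level of the 9 genes (rows) in every cell (columns, by serial number within a line) as log2(RPM + 1), from dark at 0 to yellow at 10. Nanos3 and Ifitm1 fill many columns of each line, the other genes single columns, and the brightest Ifitm3 cell is the GSC1 cell with 909 RPM.

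The cells shared by the Ifitm genes were counted beside the share of all cells with Ifitm1, 43.5%. Ifitm1 and Ifitm2 shared 10 cells, which is 50% of the 20 Ifitm2 cells and 21.3% of the 47 Ifitm1 cells. Of the 10, 5 were in GSCLC4, where 5 of 5 Ifitm2 cells had Ifitm1, as did 70.8% of the line. Ifitm1 and Ifitm3 shared 7 cells, which is 46.7% of the 15 Ifitm3 cells and 14.9% of the Ifitm1 cells, and Ifitm2 and Ifitm3 shared 1. That cell, in GSCLC4, was the only cell with all 3, at 135 RPM of Ifitm1, 41.5 of Ifitm2 and 179 of Ifitm3. The Spearman correlation of Ifitm1 and Ifitm3 was 0.36 over 24 GSC2 cells and 0.40 over 30 GSCLC1 cells, against 0.03 in GSC1 and 0.02 in GSCLC4. In GSC2 and in GSCLC1 only 1 cell had both genes at 5 RPM or more. Ifitm3 was above 0 and under 5 RPM in 9 of the 14 GSCLC1 cells with Ifitm1 (0.063 to 0.92 RPM) and 3 of the 16 without. The counts were 1 of 10 and 3 of 20 in GSC1, 3 of 6 and 1 of 18 in GSC2, and 4 of 17 and 1 of 7 in GSCLC4. Such low values are uncertain, and whether they are reads of Ifitm1 was not tested. Between Ifitm1 and Ifitm2 the Spearman correlation lay between -0.09 and 0.05 in the 4 lines. Between Ifitm2 and Ifitm3 it was 0.11, -0.04, -0.19 and 0.20 in the order GSC1, GSC2, GSCLC1, GSCLC4. Cells of a line share a depth range and are not replicates of it, and many values are 0, so these are descriptions of the cells measured.

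Ifitm1 and Nanos3, the 2 common genes, were both present in 24 cells. In GSCLC4 they ran in opposite directions. Of its 17 cells with Ifitm1, 9 had Nanos3, and of its 7 cells without Ifitm1, 5 had Nanos3. The Spearman correlation over the 24 GSCLC4 cells was -0.50, and -0.51 with the number of detected genes held fixed. In GSC1, GSC2 and GSCLC1 it was 0.17, -0.05 and 0.06. Ifitm3 and Nanos3 had -0.39 in GSCLC4 and 0.09, 0.30 and -0.15 in the other lines in the same order. Whether these correlations differ between lines was not tested.

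**Figure D5:**
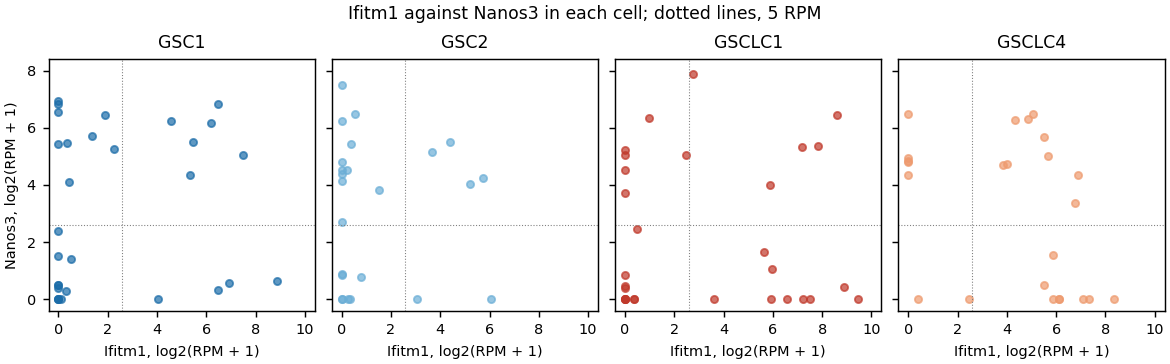
Ifitm1 (horizontal axis) against Nanos3 (vertical axis) in each cell of the 4 lines, both as log2(RPM + 1), with dotted lines at 5 RPM. In GSCLC4 the cells highest in Ifitm1 have little Nanos3 (Spearman correlation -0.50), and the other lines show no such slope (0.17, -0.05 and 0.06).

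The 4 GSCLC4 cells with Prdm1 or Tfap2c, singled out after their values were seen, differed in what else they held. The cell with 107.3 RPM of Tfap2c had 74.8 RPM of Ifitm3 and 26.9 of Nanos3, and no Ifitm1. The other Tfap2c cell was the cell with all 3 Ifitm genes and had no Nanos3. The cell with 36.3 RPM of Prdm1 had 90.8 RPM of Ifitm3 and neither Nanos3 nor more than 0.30 RPM of Ifitm1. The second Prdm1 cell had 57.4 RPM of Ifitm1, 46.1 of Alpl and 1.11 of Ifitm3. So 3 of the 4 were among the 4 GSCLC4 cells with Ifitm3, while no cell had both Prdm1 and Tfap2c, and none of the 4 had Dppa3 above 0.28 RPM. All 4 had germ cell marker sums of 5137 to 7757 RPM, with 11 to 13 of the 13 markers at 5 RPM or more. Their fibroblast marker sums were 204 to 776 RPM, inside the range of their line.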

How the data were processed

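The deposited table gives a signal per gene and cell in RPM, reads that the authors scaled to a fixed total, so that gene rows sum to 1000640 to 1001485 in a cell, with 92 spike-ins on top. The submitters' processing notes name mm10 as the build and, as tools, TopHat 1.4.1, Cufflinks 2.2.0 and cutadapt 1.3. Each column matched 1 cell by title. The RPM worth of 1 read was recovered from low values to estimate depth. Whole reads (within 0.05) made up 85.7% to 92.4% of the values of a cell, and no count test was run on them.

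RPM was averaged over the cells of a line, and log2(line mean + 1) was compared between 2 GSC and 2 GSCLC lines with limma 3.58.1 in R 4.3.3 (trend on, Benjamini-Hochberg, threshold 0.05), for 10526 genes with at least 5 RPM in at least 2 lines. Fold changes are on that scale and understate those of low genes. Shares of cells have exact Clopper-Pearson intervals. Like the limits for 0 cells (3 counts of the total), these cover counting error over cells only and not the difference between cultures. Molecular identifiers of reads were not used here. Correlations are within lines and carry no p.

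The members and lists were chosen with earlier results of these data known. Named genes were the 9 members, the 3 genes most like any member present in at least 50% of cells (Nanos3 alone), up to 4 tested genes per list by size of difference and the listed genes of the Ifitm cluster. Lists also covered Sertoli, Leydig and peritubular, blood and endothelial, undifferentiated germ and pluripotent stem cells. Other genes are given as levels. Some listed genes that the rule names are not reported here. Marker lists of Sertoli (2 tested), Leydig and peritubular (3), blood and endothelial (1), undifferentiated germ (12) and pluripotent stem cells (4) had 0 genes called. The germ cell list was led by Zbtb16 (log2 difference 0.48), the Sertoli list by Wt1 (2.72), the Leydig list by Acta2 (-4.04, or -2.33 without the GSC1 cell with the fewest genes), the blood list by Kdr (0.03) and the pluripotent list by Sox2 (1.85). Alternatives covered the pseudocount, filter, summary over cells, scaling, variance trend, each line left out, the cell with the fewest genes, the GSC1 runs and the detection threshold.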

Additional observations from a re-analysis of the deposited data

How the results depend on the processing

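The number of genes called between the types, 8, moved with most alternatives: 14 with a pseudocount of 10 RPM, 23 with a filter at 20 RPM, 23 with the mean over cells of log2 values, 3 with a trimmed mean, 3 with median-of-ratios scaling, 34 with spike-in scaling, 4 and 2 with the GSC1 run under 129 or from 129 on alone, and 3 to 19 with a line left out. It was 10 without the GSC1 cell with the fewest genes. It was 0 without the filter and 0 without the variance trend in limma, where 1388 and 871 genes had an unadjusted p under 0.05. The causes were not tested. None of the 9 genes was called in any of the 15 alternatives, which tested from 2 to 9 of them, and none of the 64 alternative values of the 5 tested genes had the opposite sign. Ifitm2, Ifitm3 and Alpl fell below the filter and have no value at 20 RPM, with the mean of log2 values or with the trimmed mean. For Ifitm1, Alpl and Nanos3 the sign with a line left out was fixed, since both GSCLC means lay on 1 side of both GSC means. The median log2 difference of all genes was 0.17 with the mean of log2 values, against 0.04, and Ifitm1 had 1.93 there. Ranges over alternatives were 0.37 to 1.45 for Ifitm2, -2.24 to -0.19 for Ifitm3, -0.54 to -0.17 for Nanos3 and 0.28 to 1.63 for Alpl. Of the alternative shares of cells, 8 lay outside the 95% interval of the share at 5 RPM, and of 35 alternative correlations 3 moved by more than 1 divided by the square root of 1 less than the number of cells. These were 0.10 for Ifitm1 and Ifitm2 in the GSC1 run from 129 on, and -0.35 and 0.50 for Ifitm2 and Ifitm3 in the GSC1 runs under 129 and from 129 on. No paired analysis was possible because the lines share no serial numbers. At 5 RPM a median cell had 17.3 estimated reads (9.99 to 30.2), and where no cell had a gene, 24 or 30 cells allow a share of up to 12.5% or 10%.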
